A study of Mus musculus with 6 samples.

Results

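The 9 genes described here encode chemokine receptors that guide regulatory T (Treg) cells into and within tissues: Ccr2, Ccr4, Ccr6, Ccr7, Ccr8, Ccr9, Cxcr3, Cxcr4 and Cxcr5. They were picked by gene symbol, as receptors for Treg cell migration, with earlier results of these data known, and all 9 were found among the 24420 genes of the deposited count table. The RNA that was sequenced came from sorted YFP+ Treg cells of female C57BL/6 mice, labelled as lymph node cells. The 3 OGT-sufficient samples came from Foxp3YFP-Cre/wtOgtwt/fl mice and the 3 OGT-deficient samples from Foxp3YFP-Cre/wtOgtfl/fl mice. Ogt encodes the enzyme that attaches O-GlcNAc, a single sugar, to nuclear and cytosolic proteins. In both groups Cre recombinase was made from the endogenous Foxp3 locus on the X chromosome, in females heterozygous for it, so that YFP marked the cells in which Cre was active, and every mouse carried at least 1 floxed Ogt allele. Whether that allele lay on the X chromosome with Cre in the Ogtwt/fl females is not stated in the labels. In such females Treg cells with and without Cre coexist, and only the YFP+ fraction was sequenced here. CD4+ cells were enriched on beads before the sort. By the study's methods the females were used as adults. The labels do not say whether each sample came from 1 mouse, so the spread between the samples of a group may be partly technical.

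Chemokine receptors are membrane receptors coupled to inhibitory G proteins. A cell that carries one moves up a gradient of the matching chemokine, by way of phosphoinositide 3-kinase and Rac, and the receptor is then desensitised by G-protein-coupled receptor kinases and arrestins. In Treg cells CCR7 and CXCR4 are known for homing to and retention in lymphoid organs and bone marrow, CXCR5 for entry into B cell follicles, CCR4 and CCR8 for skin and other non-lymphoid tissue, CCR6 and CCR9 for mucosal tissue, and CXCR3 and CCR2 for sites of type 1 inflammation.

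The promoter of Cxcr4 is shown because it differs in base composition from those of Ccr2 and Cxcr3, the other receptor genes with the largest log2 fold changes. The stretch is the 250 bases before the gene's start in RefSeq (GRCm38.p6), written 5′ to 3′ on the gene's strand, with every CG dinucleotide in capitals.
Cxcr4, chr1:128592300-128592549, minus strand: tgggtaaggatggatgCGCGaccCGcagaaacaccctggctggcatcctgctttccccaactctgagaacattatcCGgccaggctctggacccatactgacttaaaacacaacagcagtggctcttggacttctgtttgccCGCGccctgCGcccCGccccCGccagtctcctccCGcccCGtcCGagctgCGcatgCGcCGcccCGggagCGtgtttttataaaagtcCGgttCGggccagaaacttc
The Cxcr4 stretch held 19 CG dinucleotides at a GC content of 61.2%, and 80.3% of the 32851 mouse promoters in the same set held fewer. The corresponding Ccr2 stretch held 1 at a GC content of 37.2%, and the Cxcr3 stretch 3 at 48%. These stretches are not shown, because GENCODE places the starts of both genes further upstream than RefSeq does, so that 233 bases of the Ccr2 stretch and 122 of the Cxcr3 stretch lie in GENCODE exons. The medians over all promoters were 6 CG dinucleotides and 52.4% GC.

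All promoters in the set were also searched, on both strands, for the letters of 6 transcription factor motifs: a STAT5 element (TTCNNNGAA, in 7.02% of promoters), an AP-1 element (TGANTCA, 6.75%), a ROR monomer motif (AGGTCA, 14%), a T-box core (GGTGTGA, 3.33%), a KLF core (CCACACCC, 3.2%) and a forkhead core (GTAAACA, 3.17%). None of these motifs overlapped another where it was found in a receptor promoter. The stretches of Ccr2, Cxcr3, Cxcr4, Ccr8 and Ccr9 held no match. The Ccr4 stretch held an AP-1 element 143 bases before the RefSeq start. The stretches of Ccr4 (chr9:114496545-114496794) and Ccr9 (chr9:123766961-123767210) lie inside the GENCODE spans of these genes. GENCODE's outermost starts of both, further upstream, were not searched. Most matches lay in the first of 2 Ccr6 promoters, which is therefore shown with its matches in capitals: a pair of STAT5 elements that begin 157 and 120 bases before the start, and a ROR monomer motif, on the opposite strand, 44 bases before it.
Ccr6, chr17:8235793-8236042, plus strand: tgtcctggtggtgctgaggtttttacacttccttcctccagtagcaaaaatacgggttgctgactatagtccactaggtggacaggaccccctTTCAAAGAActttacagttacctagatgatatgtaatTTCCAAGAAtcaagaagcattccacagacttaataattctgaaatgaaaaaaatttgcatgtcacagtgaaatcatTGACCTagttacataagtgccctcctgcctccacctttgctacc
The promoters of Ccr7 and Cxcr5 were not analysed here.

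The samples held between 3375454 and 4103552 counts each, of which ribosomal Rn45s took 24.2% to 37.1%, and the 9 receptors together took 1157 to 1595 counts per sample. Levels are given as CPM, counts divided by TMM-scaled library sizes, on which scale 3 counts correspond to 0.756 to 0.805 CPM. OGT-sufficient replicate 3 stood apart: 18346 genes had a count in it, against 14412 to 15197 in the other samples. Ogt itself, at chrX:101640060-101684351, had 562, 632 and 957 counts in the OGT-sufficient group and 327, 266 and 368 in the OGT-deficient group. Its level was 190 ± 53.7 CPM (SD, n = 3) against 82.4 ± 14.6 CPM (SD, n = 3), with no overlap between the groups. Foxp3, the factor that defines Treg cells, had 719 to 1116 counts in every sample, and the summed level of 16 Treg and T cell markers was 3374 to 4812 CPM in the OGT-sufficient and 4358 to 5093 CPM in the OGT-deficient group. Markers of other cells were also counted. The sum of 12 macrophage markers was 1957 to 4251 CPM against 1340 to 6022 CPM, a 4.5-fold range over the samples. In OGT-deficient replicates 2 and 3 that sum, 5026 and 6022 CPM, was above the 4615 and 4358 CPM of the 16 Treg and T cell markers. The part of macrophage RNA in the receptor levels was not tested. For 12 B cell markers the sum was 187 to 540 CPM against 199 to 270 CPM. For 13 CD8, NK and gamma-delta T cell markers it was 37.3 to 79.7 CPM against 23.5 to 45.7 CPM. In bulk RNA, fewer cells that express a receptor and less receptor RNA per cell cannot be told apart.

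The question was which of the 9 receptors differed between OGT-deficient and OGT-sufficient Treg cells. Cxcr4 and Ccr7 were higher and Ccr2 and Cxcr3 lower in OGT-deficient cells at an unadjusted p under 0.05, and the other 5 did not reach it. All 9 passed the low-count filter. At a false discovery rate (FDR) of 0.1, the threshold used throughout, edgeR's quasi-likelihood test called 0 of the 9 receptors and 3 of the 10949 genes tested (0.0274%), whereas DESeq2 and edgeR's exact test each called 2 of the 9, Ccr2 and Cxcr4. The 4 of 9 receptors at an unadjusted p under 0.05 compare with 777 of 10949 genes (7.10%). Of these genes 439 were lower (4.01%) and 338 higher (3.09%), a lower share of 56.5% that became 66.8% when libraries were scaled by their size only. In 4 of the 9 receptors the levels of both groups were apart, with no overlap, against 13.2% of all genes tested. The median log2 fold change of the 9 receptors was −0.40, and that of all genes tested −0.017. With 3 samples a group, an exact permutation test of a single gene cannot go below 0.1.

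**Figure D1:**
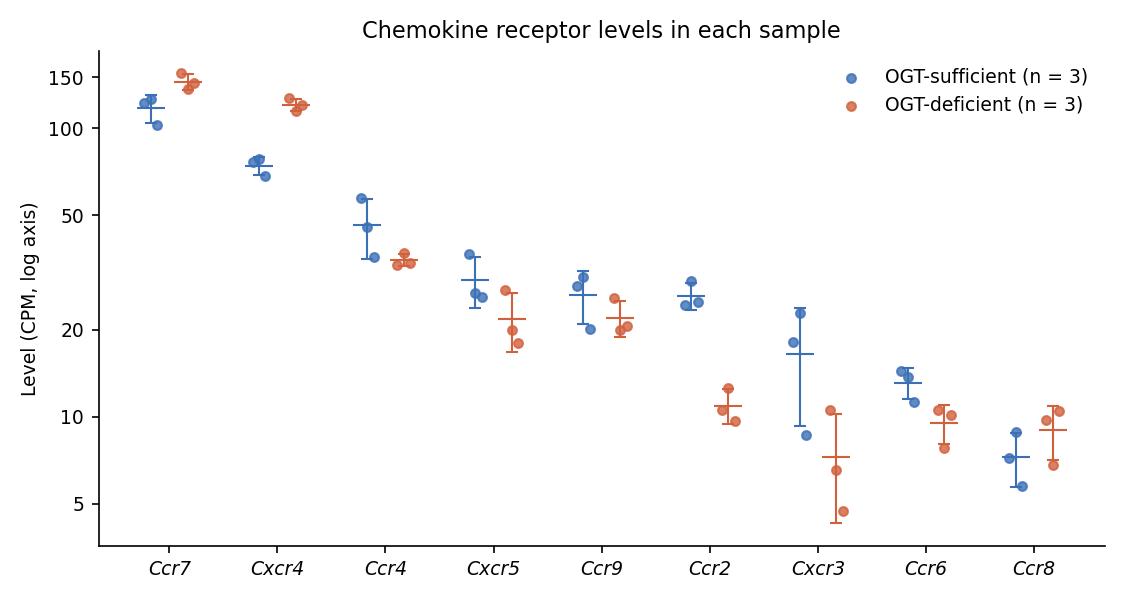
Level of each of the 9 chemokine receptors in each sample, in CPM on a log axis, with receptors in order of their mean in the OGT-sufficient group; points are samples, horizontal bars group means and error bars the SD (n = 3). The groups were separated for Ccr7, Cxcr4, Ccr2 and Ccr6, and overlapped for the other 5 receptors.

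Per kilobase of transcript, the scale on which levels can be set against each other between genes, Ccr7 was the most abundant of the 9 receptors in OGT-sufficient cells at 59.2 CPM per kb, followed by Cxcr4 at 41.1 CPM per kb and Ccr4 at 16.4 CPM per kb. Ccr7 and Cxcr4 each stood above the next receptor in every OGT-sufficient sample. From Ccr4 down, each receptor overlapped the next in the order Cxcr5 (10.5 CPM per kb), Cxcr3 (9.54), Ccr6 (7.47), Ccr8 (6.19), Ccr9 (5.08) and Ccr2 (4.59). In OGT-deficient cells Ccr7 (73.3 CPM per kb) and Cxcr4 (66.7 CPM per kb) overlapped each other and stood above Ccr4 (12.4 CPM per kb). Ccr2, at 1.91 CPM per kb, lay below all the others in the OGT-deficient group without overlap with Cxcr3, the next lowest at 4.19 CPM per kb.

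Ccr2 encodes the receptor for CCL2 and related monocyte chemoattractants and lies at chr9:124101950-124113557. Its CPM was 24.5, 29.5 and 24.9 in the OGT-sufficient group and 10.5, 12.6 and 9.66 in the OGT-deficient group. Every OGT-deficient sample was below every OGT-sufficient sample, the means were 26.3 ± 2.79 and 10.9 ± 1.51 CPM (SD, n = 3), and the level was 2.40-fold lower in OGT-deficient cells. The log2 fold change was −1.26 (SE 0.18), rank 5 by p among all genes tested, with an unadjusted p of 7.28e-05 and an adjusted p of 0.159 in edgeR's quasi-likelihood test. It lay between −1.35 and −1.15 in all 14 alternative settings, and its adjusted p between 4.54e-05 and 0.715. Of the 5679 windows of 50 bases, the length of a read, in the Ccr2 transcript, 129 (2.27%) also occur in transcripts of other genes. Monocytes also express Ccr2. The sum of 11 monocyte and neutrophil markers was 205 to 336 CPM in the OGT-sufficient and 249 to 328 CPM in the OGT-deficient group. Single markers of this list, named here after their values were seen, went both ways at an unadjusted p under 0.05. The log2 fold changes were 0.63 for Lyz2, −2.86 for S100a9 and −2.19 for Mpo. For S100a9 and Mpo, OGT-sufficient replicate 3 stood far above the other samples. S100a9 had 34, 22 and 292 counts in the OGT-sufficient and 16, 19 and 14 in the OGT-deficient group. Mpo had 54, 20 and 126 against 1, 26 and 18, and its groups overlapped. The part of such cells in the Ccr2 level was not tested.

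Cxcr3 encodes the receptor for CXCL9, CXCL10 and CXCL11 of type 1 immune responses. Its CPM was 18.1, 22.8 and 8.65 in the OGT-sufficient and 10.5, 6.55 and 4.70 in the OGT-deficient group. OGT-sufficient replicate 3 lay below the highest OGT-deficient sample, so the groups overlapped. The log2 fold change was −1.18 (SE 0.40, 95% interval −2.08 to −0.28), with an unadjusted p of 0.016 and an adjusted p of 0.565 in edgeR's quasi-likelihood test. With 1 sample left out it ran from −1.54 to −0.87. It was −1.48 without OGT-sufficient replicate 3 and −0.87 without OGT-sufficient replicate 2, and its unadjusted p was under 0.05 in 10 of the 14 alternatives. OGT-sufficient replicate 3 also had the highest sums of the B cell and of the CD8, NK and gamma-delta T cell markers. The part of these cells in the Cxcr3 level was not tested.

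Cxcr3 lies at chrX:101731535-101734269, 47183 bases past the end of the targeted gene Ogt. Its neighbours were therefore examined, after their positions had been seen. Within 1 Mb of Ogt the table held 25 other genes, of which 17 were tested. Cxcr3 was the one with an unadjusted p under 0.05 (1 of 17, 5.88%), against 7.10% of all genes tested. The other 16 had log2 fold changes between −0.57 and 0.43. Taf1, 38270 bases before the start of Ogt, had a log2 fold change of −0.079 (SE 0.12). Nhsl2, the tested gene beyond Cxcr3, 165033 bases past the end of Ogt, had one of −0.39 (SE 0.35). Of the 17, Cxcr3 included, 13 were lower and 4 higher in OGT-deficient cells, with a median log2 fold change of −0.14. Over all 10949 genes tested, 5774 were lower and 5175 higher, with a median of −0.017.

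**Figure D2:**
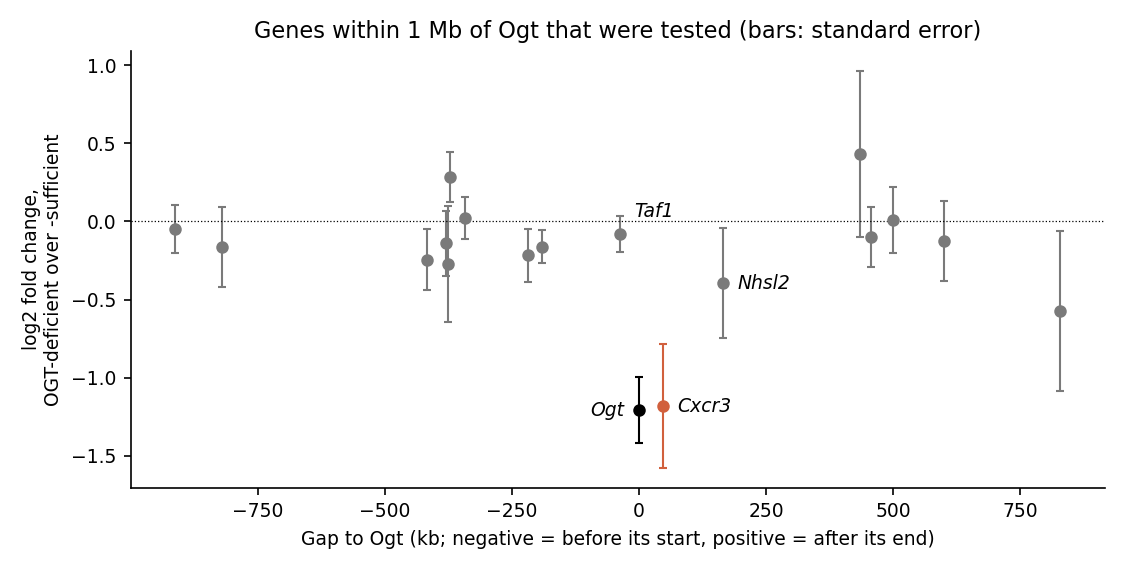
Log2 fold change between OGT-deficient and OGT-sufficient Treg cells (vertical axis, error bars the SE) of Ogt and the 17 tested genes within 1 Mb of it, against the gap to Ogt in kb (horizontal axis). Cxcr3 (−1.18) is the tested gene nearest to the end of Ogt (−1.21), and the other 16 genes lie between −0.57 and 0.43.

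Cxcr4 encodes the receptor for CXCL12, which holds cells in bone marrow and lymphoid tissue, and lies at chr1:128588199-128592293. Its CPM was 76.1, 78.1 and 68.2 in the OGT-sufficient group and 127, 115 and 120 in the OGT-deficient group. The groups were far apart relative to their spread, at 74.1 ± 5.24 and 120 ± 6.02 CPM (SD, n = 3), a 1.62-fold higher level in OGT-deficient cells. The log2 fold change was 0.70 (SE 0.11), with an unadjusted p of 0.00016 and an adjusted p of 0.191 in edgeR's quasi-likelihood test. Over the 14 alternatives it lay between 0.65 and 0.77, and the adjusted p between 0.0031 and 0.715.

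Ccr7 encodes the receptor for CCL19 and CCL21, which brings T cells into lymph nodes, and lies at chr11:99144196-99155077. It was the receptor with the most counts, at 122, 127 and 103 CPM in the OGT-sufficient group and 155, 137 and 143 CPM in the OGT-deficient group. The groups did not overlap, but the gap between the closest samples was narrow. Its log2 fold change was 0.31 (SE 0.12, 95% interval 0.034 to 0.58), with an unadjusted p of 0.032 and an adjusted p of 0.668 in edgeR's quasi-likelihood test, and the unadjusted p was under 0.05 in 9 of the 14 alternatives.

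**Figure D3:**
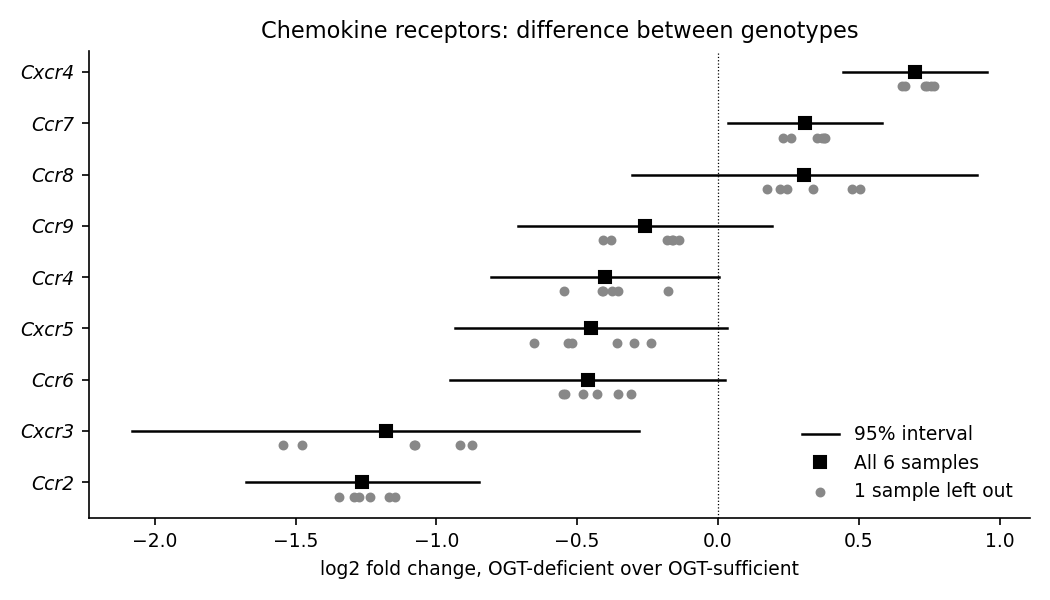
Log2 fold change of each of the 9 receptors between OGT-deficient and OGT-sufficient Treg cells (horizontal axis); squares are the fit of all 6 samples, lines its 95% interval and grey points the fits with 1 sample left out. The intervals of Cxcr4, Ccr7, Cxcr3 and Ccr2 do not cross 0, and no receptor changed sign when a sample was left out.

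Receptors for skin and other barrier tissue did not pass the FDR of 0.1 in any of the settings. Ccr4, at chr9:114490316-114504916, encodes a receptor for CCL17 and CCL22. Its CPM was 57.2, 45.3 and 35.7 in the OGT-sufficient group and 33.7, 36.8 and 34.2 in the OGT-deficient group. The OGT-deficient samples lay close together, 2 of them below the lowest OGT-sufficient sample and 1 just above it. Its log2 fold change was −0.40 (SE 0.18, 95% interval −0.81 to 0.0038). Ccr8, at chr9:120092114-120094906, encodes the receptor for CCL1 and CCL8. It was the receptor with the fewest counts, 22 to 33 in the OGT-sufficient and 27 to 40 in the OGT-deficient group, and a log2 fold change of 0.31 had an interval of −0.31 to 0.92. That interval covers both no difference and a level well above that of OGT-sufficient cells.

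Ccr6, at chr17:8236043-8257141, encodes the receptor for CCL20, which is made by mucosal epithelium. Its CPM was 14.4, 13.7 and 11.3 in the OGT-sufficient group and 10.5, 7.81 and 10.2 in the OGT-deficient group. The groups did not overlap, and the log2 fold change was −0.46 (SE 0.22), with an adjusted p of 0.709 in edgeR's quasi-likelihood test. Ccr9, at chr9:123678439-123784330, encodes the receptor for CCL25 of the small intestine and thymus, and its exons overlap those of 3 other annotated genes, by up to 1932 bases. Its CPM was 28.5, 30.6 and 20.2 against 25.7, 19.9 and 20.6, with both groups covering much the same range. The log2 fold change was −0.26 (SE 0.20), with an adjusted p of 0.812 in edgeR's quasi-likelihood test.

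Cxcr5, at chr9:44511787-44561877, encodes the receptor for CXCL13, which draws follicular T cells and B cells into follicles. Its CPM was 36.7, 26.8 and 26.0 in the OGT-sufficient group and 27.5, 19.9 and 18 in the OGT-deficient group. Replicate 1 was the highest of its group in both genotypes, and the groups overlapped through it. The log2 fold change was −0.45 (SE 0.21), with an adjusted p of 0.718 in edgeR's quasi-likelihood test. B cells express Cxcr5 too, and all 12 B cell markers had a lower fitted level in OGT-deficient samples, 2 of them at an unadjusted p under 0.05. None of the 12 was at 0 in any sample, and their part in the Cxcr5 and Ccr6 levels was not tested. An exon of Cxcr5 also overlaps Bcl9l on the other strand, by 110 bases, and whether counting used strand is not given in the sources used here.

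Among 15 other chemokine receptors, 5 passed the filter and 1 had an unadjusted p under 0.05. This was Cxcr6, the receptor for CXCL16 on activated and tissue-dwelling T cells, with 32, 41 and 45 counts in the OGT-sufficient and 13, 17 and 16 in the OGT-deficient group. All OGT-deficient samples were below all OGT-sufficient ones, and its log2 fold change was −1.40 (SE 0.26), with an adjusted p of 0.201 in edgeR's quasi-likelihood test and of 0.0031 to 0.764 over the 14 alternatives, 2 of which passed the FDR of 0.1. Ccr3, the eotaxin receptor, varied widely within groups, with 744, 479 and 262 counts in the OGT-sufficient and 271, 1158 and 667 in the OGT-deficient group. In the same samples the sum of the macrophage markers was 4251, 3478 and 1957 CPM, and 1340, 5026 and 6022 CPM. The part of macrophage RNA in the Ccr3 level was not tested. Cx3cr1, the fractalkine receptor, had a log2 fold change of 0.04 (SE 0.24).

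The matching ligands were scarce in these samples: of 38 chemokine genes 21 had at most 3 counts in every sample, among them 6 without any count, and 9 passed the filter. Ccl19 and Ccl21a, Ccl21b and Ccl21c, the ligands of CCR7, had no count in any sample. Ccl6, a chemokine of myeloid cells, was the one ligand gene with an unadjusted p under 0.05, at 12.0, 9.39 and 8.91 CPM in the OGT-sufficient and 22.9, 13.9 and 12.3 CPM in the OGT-deficient group. Its log2 fold change was 0.69 (SE 0.28), with an adjusted p of 0.669 in edgeR's quasi-likelihood test. Ccl5 (−0.30, SE 0.41) and Cxcl16 (0.55, SE 0.39), the other ligand genes with the most counts, had log2 fold changes with unadjusted p above 0.05.

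Of 37 genes that relay or end chemokine receptor signals, 36 were tested and 3 (8.33%) had an unadjusted p under 0.05, a share near the 7.10% of all genes tested. Rgs16 (log2 fold change −0.62, SE 0.21) and Rgs3 (−0.40, SE 0.15), which switch off G proteins, had lower levels in OGT-deficient cells, and Pik3cg, the phosphoinositide 3-kinase that G proteins activate, a higher one (0.31, SE 0.11). None passed the FDR of 0.1. Pik3cg reached 97.4 ± 1.40 CPM (SD, n = 3) in the OGT-deficient group, against 78.4 ± 4.87 CPM (SD, n = 3) in the OGT-sufficient group. The most abundant genes of the list gave log2 fold changes of −0.045 (SE 0.12) for Dock2, the activator of Rac, 0.27 (SE 0.16) for Coro1a, an actin regulator, and 0.13 (SE 0.15) for Gnai2, the inhibitory G protein subunit.

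Of 20 transcription factors known to control chemokine receptor or homing genes, all were tested and 5 (25%) had an unadjusted p under 0.05, against 7.10% of all genes tested. Levels were fully separated by genotype in these 5 of the 20 factors and in no other, against 13.2% of all genes tested. These 5 were picked by p from the same values, so their separation adds no independent support. The list of 20 was itself chosen with earlier results of these data known, so its share of 25% adds none either. Rora, a nuclear receptor of tissue lymphocytes, was at 55.4, 67.6 and 49.6 CPM in the OGT-sufficient and 31.1, 26.7 and 23.2 CPM in the OGT-deficient group. Its log2 fold change was −1.09 (SE 0.17), with an adjusted p of 0.189 in edgeR's quasi-likelihood test and of 0.00018 to 0.763 over the 14 alternatives, 4 of which passed the FDR of 0.1. Tbx21, which encodes T-BET, an activator of Cxcr3 in type 1 responses, was at 5.32, 6.44 and 6.55 CPM against 5.14, 2.52 and 1.83 CPM. One OGT-deficient sample was thus close to the OGT-sufficient ones, and the log2 fold change was −0.94 (SE 0.39), with an unadjusted p under 0.05 in 6 of 13 alternatives. Batf, an AP-1 factor of tissue Treg cells, had a log2 fold change of −0.45 (SE 0.16). Klf2, which maintains genes of lymph node homing and exit, was higher at 282 ± 26.6 CPM (SD, n = 3) in OGT-deficient against 197 ± 27.2 CPM (SD, n = 3) in OGT-sufficient cells. Irf4, a factor of effector Treg cells, was higher as well, with a log2 fold change of 0.58 (SE 0.13). In edgeR's quasi-likelihood test 0 of the 20 passed the FDR of 0.1. There the adjusted p was 0.306 for Irf4, 0.405 for Klf2, 0.577 for Batf and 0.677 for Tbx21. Satb1 (0.20), Lef1 (0.19) and Tcf7 (−0.17), the factors with the highest levels, had log2 fold changes with unadjusted p above 0.05.

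**Figure D4:**
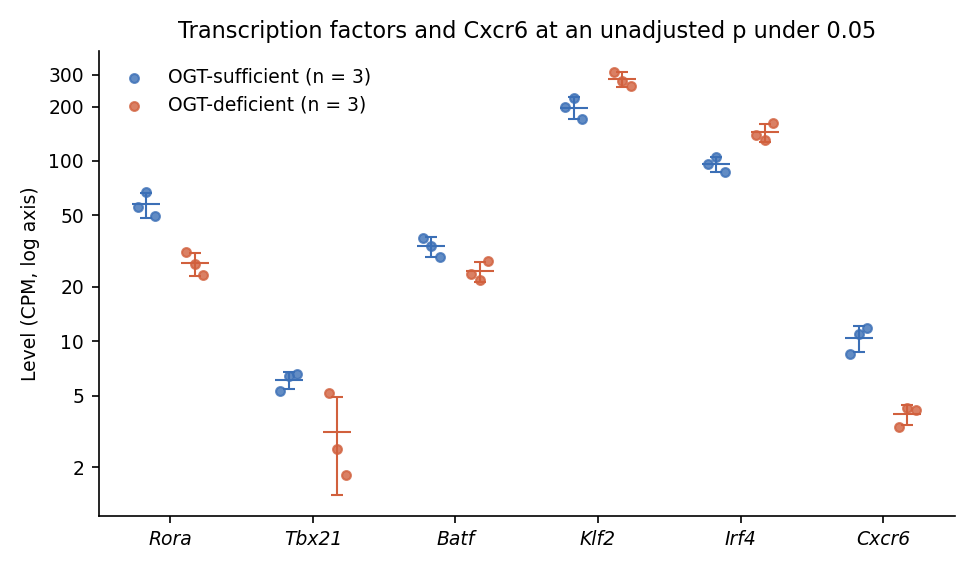
Level in each sample, in CPM on a log axis, of the 5 transcription factors and of Cxcr6, each at an unadjusted p under 0.05; points are samples, horizontal bars group means and error bars the SD (n = 3). In all 6 genes the groups are separated, with Tbx21 closest, at 5.32 CPM in the lowest OGT-sufficient and 5.14 CPM in the highest OGT-deficient sample.

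Of 14 other guidance receptors, 10 were tested and 0 had an unadjusted p under 0.05 in edgeR's quasi-likelihood test. S1pr1 is activated by KLF2, and its product lets T cells leave lymph nodes. Its level was 309 ± 41.5 CPM (SD, n = 3) in the OGT-deficient against 270 ± 30.3 CPM (SD, n = 3) in the OGT-sufficient group, a log2 fold change of 0.19 (SE 0.14). P2ry10 (0.27, SE 0.14) and Ptger4 (−0.21, SE 0.14) were the next most abundant.

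The genes outside these lists whose levels over the 6 samples were most like those of the 2 receptors with an unadjusted p under 0.01 were found among 10798 genes, by the root mean square difference of centred log2 CPM. For Ccr2 they were Kctd17 (0.158), Pde2a (0.186) and Lxn (0.197). For Cxcr4 they were Aven (0.0354), Rcn1 (0.0589) and Nsg2 (0.0612).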

How the data were processed

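YFP+ Treg cells of OGT-sufficient and OGT-deficient females, 3 samples each, were sequenced as 50-base read pairs. The submitters' processing notes list Trimmomatic 0.33, Bowtie2 2.2.4.0, FastQC, featureCounts and edgeR with mm10, whereas the paper names Cuffquant for quantification. The authors deposited whole-number counts per gene, without normalization. Strand and the handling of shared reads are not given in the sources used here. The authors' p-values, fold changes and group means in the same table were not used.

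Counts were tested in R 4.3.3 with edgeR 4.0.16 (quasi-likelihood F test, TMM scaling, filterByExpr at a minimum count of 10, genotype only) and adjusted by Benjamini-Hochberg over 10949 genes. DESeq2 1.42.0 was an alternative. The SE was the absolute log2 fold change divided by the root of the F statistic. The steps were tested on simulated data. Coordinates and transcript lengths came from GENCODE M21 (GRCm38, which mm10 names), promoters from RefSeq for 7 of the 9 receptors. Levels per kb use 1 principal transcript a gene.

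The receptors, by symbol and with no threshold on their values, and the gene lists were chosen with earlier results of these data known. Besides the 9 receptors and Ogt, genes are named from each list if their unadjusted p was under 0.05 (at most 8) or if they were among the 3 with the highest mean CPM, with undetected ligands and genes singled out where stated. The lists of monocyte, neutrophil and dendritic cell markers gave 3 of 9 and 1 of 8 tested genes at an unadjusted p under 0.05, macrophage markers 0 of 12, CD8, NK and gamma-delta T cell markers 0 of 6, and Treg and T cell markers 2 of 16. Some other receptor genes are not reported here singly.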

Additional observations from a re-analysis of the deposited data

How the results depend on the processing

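Ccr2 and Cxcr4 kept their direction and an unadjusted p under 0.05 in all 14 alternatives, and no receptor changed sign in any of 126 values. The number of receptors called at an FDR of 0.1 was 0 in the reported fit and with each sample left out. It was 2 with DESeq2, 2 with the exact test of edgeR, and 3 if low counts were kept, where Cxcr3 joined. The number at an unadjusted p under 0.05, 4 in the reported fit, was 3 to 7 with a sample left out, and 7 without OGT-sufficient replicate 3. Their median log2 fold change was −0.53 to −0.18 with a sample left out. Ligand genes at that p numbered 2 without a filter and 0 to 2 with a sample left out. Signalling genes numbered 0 with DESeq2, 5 without a filter and 1 to 4 with a sample left out. Transcription factors numbered 3 with DESeq2 and 3 to 7 with a sample left out. Guidance receptors numbered 3 without a filter and 0 to 1 with a sample left out. The cause of these shifts was not tested.

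Over all genes, the calls at an FDR of 0.1 numbered 3 in the reported fit, 131 without a filter, 80 with the exact test, 38 with DESeq2, 9 without OGT-sufficient replicate 3, and 0 without OGT-deficient replicate 2 or 3. Genes at an unadjusted p under 0.05 numbered 777, 452 with DESeq2, 1208 without a filter and 462 without OGT-deficient replicate 2. Their lower share of 56.5% was 43.4% without OGT-sufficient replicate 1, 44.4% without OGT-deficient replicate 2 and 43.4% without OGT-deficient replicate 3. Signs turned in 8 of 335 values of the other 24 named genes, in none with an unadjusted p under 0.05 in the reported fit. With a sample left out, the log2 fold changes ran from −0.097 to 0.026 for Dock2, −0.12 to 0.27 for Cx3cr1, −0.0048 to 0.23 for Gnai2, −0.085 to 0.89 for Ccr3 and −0.87 to 0.097 for Ccl5. That of Dock2 was 0.0060 without a filter, 0.026 without OGT-sufficient replicate 3, 0.00080 without OGT-deficient replicate 2 and 0.024 without OGT-deficient replicate 3. Without OGT-sufficient replicate 3, Cx3cr1 gave −0.12 and Gnai2 −0.0048. Without OGT-deficient replicate 2, Ccr3 gave −0.085 and Ccl5 0.097.

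The replicate numbers are shared between the groups, but same-numbered samples did not deviate together (correlations of −0.281, 0.00726 and −0.118 across genes), and 0 of 6 samples correlated best with its own number. With the replicate number as a block, 5 receptors had an unadjusted p under 0.05 and 0 passed the FDR of 0.1. Over all genes 679 and 0 did. Depth limits Tbx21, Ccr8 and Cxcr6, with at most 45 counts per sample.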
